A study of Mus musculus with 2 samples.

Results

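The methionine cycle and transsulfuration pathway was followed through 9 genes, Mat1a, Gnmt, Pemt, Ahcy, Bhmt, Bhmt2, Mtr, Cbs and Cth, which were taken by symbol from the 15526 genes of the deposited table. All 9 were listed, and all 9 had a mean over both pools of at least 10 CPM (reads scaled to library size by the authors), the floor that 7761 genes passed. Liver RNA came from female NOG-TKm30 mice of 22 weeks, an immunodeficient strain that carries a mutant herpes simplex virus thymidine kinase (HSVtk, clone 30) driven by the mouse transthyretin enhancer and promoter. Acetoaceto-o-toluidide (AAOT), an amide of o-toluidine, was given at 0.3% for 4 weeks to the AAOT group and at 0% to the control group, and the transgene was present in both. The strain is given as NOG in one label and C57BL in another. RNA of 3 mice was mixed into 1 library per group, called control liver and AAOT liver below, so there is 1 library on each side and no spread between animals can be estimated. Every ratio below is therefore that of these 2 pools, without a test, and the 95% interval beside it covers counting error only.

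The methionine cycle makes S-adenosylmethionine (SAM), the methyl donor of most cellular methylation reactions, and the liver is its main site. Methyl transfer leaves S-adenosylhomocysteine, which is split to homocysteine. Homocysteine is either methylated again to methionine or passed through transsulfuration to cysteine, a building block of glutathione and taurine. In bulk liver RNA, fewer cells of a type and less RNA per cell cannot be told apart.

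The coding sequences of 2 gene pairs are shown first, because they decide which values can be assigned to a single gene. Ahcy (ENSMUSG00000027597.15, chromosome 2, 155059310 to 155074497, GRCm38) has 10 exons in its coding transcript. Gm4737 (ENSMUSG00000048087.6, chromosome 16, 46152985 to 46155077) has 1 exon, is annotated as protein-coding and aligned with the coding sequence of Ahcy over all 1296 bases with 4 substitutions, an identity of 99.7%. Counted from the A of the start codon, with the base of Ahcy first, these are C459T, G474A, C1050T and C1068T. Coding bases 355 to 474 of both genes, from the GENCODE transcripts, are printed 5′ to 3′ with differing bases in capitals.
Ahcy: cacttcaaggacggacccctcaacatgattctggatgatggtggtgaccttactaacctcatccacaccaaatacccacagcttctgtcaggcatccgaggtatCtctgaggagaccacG
Gm4737: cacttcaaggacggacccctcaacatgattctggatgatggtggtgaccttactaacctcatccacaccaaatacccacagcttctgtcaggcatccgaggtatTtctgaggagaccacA

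In that stretch of 120 bases the genes differed at 2. Of the 50-base stretches of the longest Ahcy transcript, 74.1% also occurred in Gm4737, and 23.0% occurred in no other gene. For Gm4737 6.31% occurred in no other gene.

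Bhmt and Bhmt2 lie in a row on the minus strand of chromosome 13, with 17758 bases between them, and are the other pair of related genes among the 9. The first 120 coding bases of each are printed in the same way.
Bhmt: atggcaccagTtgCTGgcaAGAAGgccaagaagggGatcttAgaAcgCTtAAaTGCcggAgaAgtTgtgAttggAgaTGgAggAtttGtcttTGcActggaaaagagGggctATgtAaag
Bhmt2: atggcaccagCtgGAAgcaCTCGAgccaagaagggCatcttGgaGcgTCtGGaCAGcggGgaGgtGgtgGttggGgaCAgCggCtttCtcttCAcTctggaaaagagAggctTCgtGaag

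These differed at 36 of 120 bases. Over the whole alignment 67.1% of positions were identical, and only 0.414% of the 50-base stretches of Bhmt2 occurred in Bhmt. Of the stretches of the longest Bhmt transcript, which is not its longest protein-coding one, 88.2% were unique. The remainder was shared with Gm5096 and Bhmt-ps1, which are not analysed here, so part of the reads of Bhmt could belong to them. Within the coding sequence, 0.853% of the stretches of Bhmt occurred in Bhmt2. Mat1a, Gnmt, Pemt, Mtr and Cth were unique over 100% of their stretches, Cbs over 98.6% and Bhmt2 over 95.04%.

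Cth, the last gene of transsulfuration, was the most different of the 9, at 1.57-fold higher in AAOT liver (1.51 to 1.63). Bhmt and Bhmt2, which return homocysteine to methionine, were 1.44-fold and 1.31-fold higher, and Gnmt, a consumer of SAM, was 1.26-fold higher. Mat1a, which makes SAM, and Cbs, the first gene of transsulfuration, were nearly equal in the pools, and Pemt was 1.14-fold lower. None of the 9 reached a 2-fold difference in either direction (0 higher and 0 lower), taken as log2((AAOT + 1 CPM)/(control + 1 CPM)). In the background of 7761 genes 0.773% were at least 2-fold higher and 0.425% at least 2-fold lower. With a limit of 1.5-fold, 1 member was counted as higher, Cth, against 2.07% of all genes, and 0 as lower, against 1.39%. The 9 genes had a median log2 ratio of 0.28, against -0.02 for all 7761 genes, with an SD across genes of 0.29. Above 0 were 6 of 9 members and 46.4% of all genes. The counting interval lay wholly above equality for 5 members and for 18.7% of all genes, and wholly below it for 3 members and for 20.8%. These interval counts depend on read depth, so the members and all genes are not compared on equal terms by them. Mat1a and Cbs, with 63920 and 8913 reads in control liver, were counted as lower at a difference of only 1.04-fold.

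The marker genes were those of liver, and most markers of the pericentral and periportal hepatocyte zones lay on opposite sides of equality. All 8 hepatocyte markers were listed, 3 higher and 5 lower in AAOT liver, and summed to 81626 CPM in control liver and 72998 CPM in AAOT liver. Alb alone was at 57688 CPM and 50830 CPM. Of 8 pericentral markers 7 were lower in AAOT liver, with a sum of 9427 CPM against 7029 CPM. Cyp2e1 alone was at 7633 CPM and 5603 CPM, and Rhbg was 1.23-fold higher (1.02 to 1.49). Of 8 periportal markers 8 were higher, with a sum of 6089 CPM against 6643 CPM. Pck1, also counted as a hepatocyte marker, was at 2625.5 CPM and 2844 CPM, and Hsd17b13 had a ratio of 1.04 (0.995 to 1.08). Over all 7761 genes, 46.4% had a ratio above 0. The part of these zone markers in the ratios of the 9 genes was not tested. Kupffer cell markers summed to 302 CPM and 324 CPM, sinusoidal endothelial markers to 493 CPM and 504 CPM, stellate cell markers to 520 CPM and 454 CPM, and cholangiocyte markers to 62.9 CPM and 47.9 CPM. Lower in AAOT liver were 2 of 8 Kupffer cell, 5 of 8 sinusoidal endothelial, 8 of 8 stellate cell and 7 of 8 cholangiocyte markers. One-sided counts were thus found for stellate cell and cholangiocyte markers as well, several of which had few reads. Of the cholangiocyte markers only 2 passed the floor, and of the stellate cell markers 5. Of 8 lymphocyte markers 1 was listed, with 0 and 2 reads, and of 8 kidney tubule markers 2 were listed, with 16 and 7 reads.

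**Figure D1:**
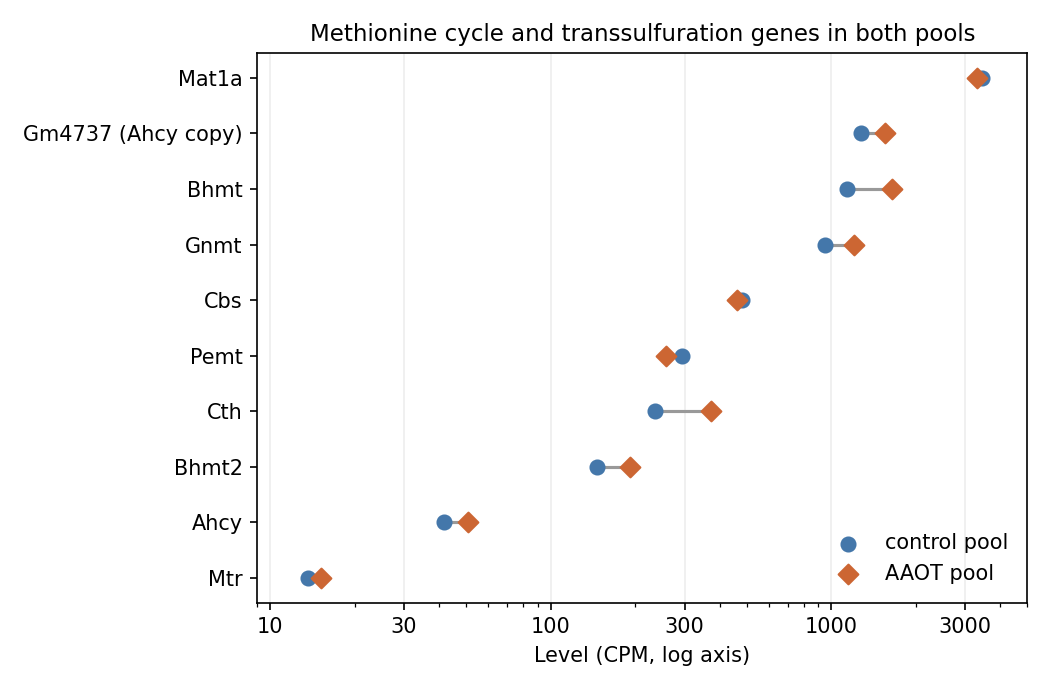
Levels of the 9 genes and of Gm4737, the near-identical copy of Ahcy, in control liver (circles) and the AAOT liver (diamonds), in CPM on a log axis and not corrected for transcript length. Cth, Bhmt, Bhmt2 and Gnmt sit visibly to the right in AAOT liver, while the points of Mat1a and Cbs nearly coincide.

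Mat1a (ENSMUSG00000037798.7, chromosome 14, 41105035 to 41124412), the liver form of the enzyme that makes SAM from methionine, was at 3442 CPM in control liver and 3306 CPM in AAOT liver. It was 1.04-fold lower (1.03 to 1.05), with 63920 reads and 55327 reads. The AAOT value was barely below the control value, and its log2 ratio ran from -0.07 to -0.01 over the scalings and added constants tried. With the columns scaled to equal totals without the ribosomal precursor Rn45s, the ratio had an interval of 0.98 to 1.004, which includes equality. Mat2a, the form of the same enzyme found outside adult hepatocytes and induced in growth, was at 55.6 CPM and 71.0 CPM, 1.28-fold higher (1.17 to 1.39). Mat2b, the regulatory subunit of the Mat2a enzyme, stood at 26.3 CPM and 25.8 CPM, which gives 0.98 (0.86 to 1.12) as the ratio. Coding sequences of Mat1a and Mat2a were 73.4% identical and shared 0% of 50-base stretches, so their reads can be told apart. Of the reads of both genes, Mat1a took 98.4% (exact binomial interval 98.3% to 98.5%) in control liver and 97.9% (97.8% to 98.01%) in AAOT liver. This share does not depend on scaling, and the odds of a read being from Mat1a were 1.33-fold lower (1.22 to 1.45) in AAOT liver.

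Gnmt and Pemt are the SAM consumers among the 9 genes, and their ratios lay on opposite sides of equality. Gnmt (ENSMUSG00000002769.9, chromosome 17, 46725664 to 46729168), which methylates glycine to sarcosine and disposes of excess SAM, was at 953 CPM in control liver and 1204 CPM in AAOT liver. It was 1.26-fold higher (1.24 to 1.29). Pemt (ENSMUSG00000000301.16, chromosome 11, 59970614 to 60046489), which methylates phosphatidylethanolamine to phosphatidylcholine, was at 293 CPM and 257 CPM. It was 1.14-fold lower (1.098 to 1.19), the lowest ratio of the 9. The read ratio of Gnmt to Pemt within a library was 3.25 in control liver and 4.69 in AAOT liver, an odds ratio of 1.44 (1.38 to 1.51).

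Ahcy, which splits S-adenosylhomocysteine into homocysteine and adenosine, was listed at 41.5 CPM in control liver and 50.8 CPM in AAOT liver, 1.22-fold higher (1.11 to 1.35). Gm4737 was listed at 1279 CPM and 1547 CPM, 1.21-fold higher (1.19 to 1.23). Gm4737 thus held 96.9% (96.6% to 97.1%) of the reads of both in control liver and 96.8% (96.6% to 97.03%) in AAOT liver. Given the sequences printed above, the deposited values do not show which of these loci the reads came from, and single values of either are uncertain. Their sum was 1321 CPM in control liver and 1598 CPM in AAOT liver, 1.21-fold higher (1.19 to 1.23). The ratio was alike for Ahcy and for its copy, whereas their listed levels were not. The ratio of the sum follows that of Gm4737, which held most of the reads. Reads of 1 locus could be divided between both entries, so the likeness does not show that each gene differed between the pools. The Ahcy-like genes Ahcyl1 and Ahcyl2 were at ratios of 1.13 (1.07 to 1.20) and 0.92 (0.81 to 1.05).

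Homocysteine is methylated by the enzymes of 3 members, of which Bhmt and Bhmt2 were higher in AAOT liver and Mtr could not be told from equality. Bhmt (ENSMUSG00000074768.6, chromosome 13, 93616675 to 93637961), which takes the methyl group from betaine, was at 1136 CPM in control liver and 1640 CPM in AAOT liver. It was 1.44-fold higher (1.42 to 1.47), with 21098 reads and 27442 reads, and 2.68% of the 7761 genes had a log2 ratio as high or higher. Bhmt2 (ENSMUSG00000042118.7, chromosome 13, 93655720 to 93674302), which uses S-methylmethionine, was at 146 CPM and 191 CPM, 1.31-fold higher (1.24 to 1.38). Both neighbours were higher in AAOT liver, Bhmt by somewhat more, with a Bhmt to Bhmt2 read ratio of 7.78 in control liver and 8.58 in AAOT liver, an odds ratio of 1.103 (1.04 to 1.16). Mtr (ENSMUSG00000021311.9, chromosome 13, 12182712 to 12258113), the cobalamin-dependent methionine synthase that uses 5-methyltetrahydrofolate, was low, at 13.7 CPM and 15.2 CPM. Its 254 reads in each library gave a ratio of 1.11 (0.93 to 1.33), so no difference was detectable at this depth. Mtrr, which reactivates that enzyme, was below the floor at 6.89 CPM and 6.57 CPM, which gives a ratio of 0.95 (0.73 to 1.24). Bhmt against Mtr had an odds ratio of 1.30 (1.09 to 1.56).

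The upstream sequence of Bhmt is shown because it is the member with the largest difference for which the RefSeq promoter table (GRCm38.p6) holds an entry. It held one for 7 of the 9 genes and none for Mat1a and Cth. In the 250 bases before the RefSeq start of Bhmt, the nuclear receptor half-site AGGTCA, searched on both strands, occurred 3 times, each in the direction of the gene. Windows of 30 bases on the minus strand are given with the motif in capitals, from the most distant to the nearest.
Bhmt chr13:93637975-93638004: tgtgccagatgtAGGTCAtgcagtttacac
Bhmt chr13:93637813-93637842: gaccccagatcaAGGTCAgaggcctgctat
Bhmt chr13:93637788-93637817: gctattggacaaAGGTCAgtgtgcagacga

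The first base of the motif lay 234, 72 and 47 bases before that start. GENCODE places the start 203 bases further upstream. By that start only the most distant site lies before the gene, and those at 72 and 47 bases lie within it. Of 32851 RefSeq promoter windows of this length, 14.0% held the motif at least 1 time and 0.131% at least 3 times. Ahcy and Gnmt had 1 match each, and the windows of Bhmt2, Cbs, Mtr and Pemt had 0. AGGTCA was 1 of 8 motifs searched on both strands and is shown because Bhmt had the most matches to it. Of the others, CCAAT had 1 match in the Bhmt window, and 6 had 0: the TATA box TATAAA, the GC box GGGCGG, the E-box CACGTG, the antioxidant response core TGACNNNGC, the ATF4 composite core TGATGNAA and the AhR core GCGTG. A match in these letters is a description and not a binding site.

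Transsulfuration has 2 steps, and their genes differed in ratio. Cbs (ENSMUSG00000024039.15, chromosome 17, 31608894 to 31637238), which joins homocysteine and serine to cystathionine, was at 480 CPM in control liver and 463 CPM in AAOT liver. It was 1.04-fold lower (1.01 to 1.07), and at equal column totals the interval of its ratio was 0.96 to 1.02, which includes equality. Cth (ENSMUSG00000028179.12, chromosome 3, 157894248 to 157925077), which cleaves cystathionine to cysteine, was at 236 CPM and 371 CPM. With 4386 reads and 6213 reads its ratio was the highest of the 9, and 1.68% of all genes had a log2 ratio as high or higher. The Cbs to Cth read ratio was 2.03 in control liver and 1.247 in AAOT liver. The odds of a read being from Cbs rather than Cth were 1.63-fold lower (1.55 to 1.71) in AAOT liver, the farthest from equality of the 5 pairs compared.

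**Figure D2:**
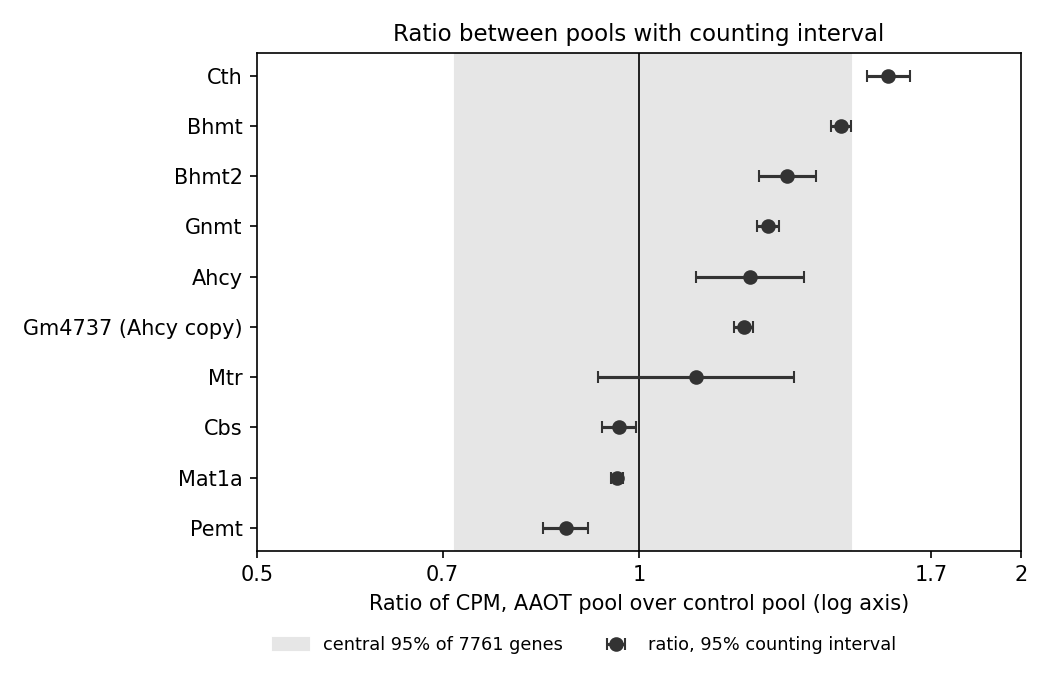
Ratio of CPM in AAOT liver to control liver for the 9 genes and Gm4737, on a log axis, with exact 95% counting intervals as bars. The grey band spans the central 95% of ratios of the 7761 genes. Cth lies outside the band, Bhmt at its edge, and the bar of Mtr crosses equality.

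The read shares and read ratios of gene pairs given above are not corrected for transcript length, so they compare the pools and not the levels of the genes. For levels, values per kilobase of the longest annotated transcript were used. Mat1a, at 993 CPM per kb, and Gnmt, at 921 CPM per kb, led in control liver, while Gnmt, at 1163 CPM per kb, stood before Mat1a, at 953 CPM per kb, in AAOT liver. Pemt and Bhmt followed in control liver, at 292 CPM and 287 CPM per kb, and were in the reverse order in AAOT liver, at 256 CPM and 414 CPM per kb. Cth came next in both pools, at 130 CPM and 205 CPM per kb. Cbs and Bhmt2 also changed places, at 77.1 CPM and 59.2 CPM per kb in control liver and 74.3 CPM and 77.5 CPM per kb in AAOT liver. Mtr was last in both, at 1.65 CPM and 1.83 CPM per kb, below the uncertain value of Ahcy at 16.3 CPM and 19.97 CPM per kb. The order depends on the transcript length used. The longest Bhmt transcript, of 3963 bases, is not annotated as protein-coding, and its longest protein-coding one has 2490 bases. Per kilobase of coding sequence Bhmt stood before Pemt in both pools, at 931 CPM and 1343 CPM against 414 CPM and 362 CPM. By that measure Mat1a led in both pools, at 2897 CPM and 2783 CPM, and only Cbs and Cth changed places.

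Around the 9 genes, 86 genes of 8 connected gene lists passed the floor, of 114 symbols and 106 listed. Of the 86, 0 passed 2-fold in either direction, against 0.773% of all 7761 genes higher and 0.425% lower. By 1.5-fold or more 2 were higher and 2 lower, against 2.07% and 1.39% of all genes. Above 0 were 51 of the 86, against 46.4% of all genes, and the median log2 ratio was 0.05. The counts above 0 of the single lists below stand beside the same 46.4%. Aldh1l1, Tyms and Csad were among the genes past 1.5-fold.

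In the folate cycle, which carries the methyl group used by Mtr, 13 of 16 genes were above 0, with a median of 0.13. The counting interval lay wholly above equality for 8 of the 16, wholly below it for 1 and included it for 7. Aldh1l1, which removes 10-formyltetrahydrofolate from the cycle and is abundant in hepatocytes, was at 892 CPM in control liver and 1411 CPM in AAOT liver, 1.58-fold higher (1.55 to 1.61). The thymidylate synthase gene Tyms was 1.55-fold higher (1.44 to 1.66).

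In choline and betaine breakdown, which supplies Bhmt, 5 of 9 genes were above 0 and the median was 0.12. Slc6a12, a betaine carrier, was 1.28-fold higher (1.20 to 1.37), its relative Slc6a13 1.247-fold higher (1.19 to 1.31), and Chdh, which oxidizes choline towards betaine, 1.17-fold higher (1.12 to 1.21). Their differences were smaller than that of Bhmt. Among small-molecule methyltransferases, which use SAM, 8 of 10 were above 0 with a median of 0.17. The creatine synthesis gene Gamt was 1.28-fold higher (1.21 to 1.35), the arsenic methyltransferase As3mt 1.33-fold higher (1.12 to 1.57) and the histamine methyltransferase Hnmt 1.24-fold higher (1.03 to 1.496).

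Downstream of Cth, genes of cysteine use did not share a direction. Csad, which makes hypotaurine on the way from cysteine to taurine, was at 371 CPM in control liver and 224 CPM in AAOT liver, 1.65-fold lower (1.59 to 1.72), the lowest ratio of all 86 genes. Got1, a transaminase that also acts on cysteine sulfinate, was 1.35-fold higher (1.29 to 1.41), and Papss2, which makes the sulfate donor PAPS, was 1.30-fold higher (1.26 to 1.35). Of 14 genes in this list 8 were above 0 and the median was 0.06. The list of glutathione synthesis and breakdown also holds the amino acid carrier Slc7a2. In it 5 of 9 were above 0 and the median was 0.04. Glutathione synthetase, Gss, was 1.32-fold lower (1.21 to 1.45), glutathione reductase, Gsr, 1.24-fold higher (1.15 to 1.34) and the cationic amino acid carrier Slc7a2 1.245-fold higher (1.21 to 1.28).

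In phosphatidylcholine and phosphatidylethanolamine synthesis, where Pemt methylates the second lipid to the first, 6 of 12 were above 0 and the median was -0.004. Etnk2, an ethanolamine kinase, was 1.40-fold higher (1.33 to 1.48), Chka, a choline kinase, 1.24-fold lower (1.102 to 1.40), and Ept1, which joins phosphoethanolamine to diacylglycerol, 1.23-fold higher (1.17 to 1.30). In polyamine synthesis and methionine salvage 4 of 11 were above 0 and the median was -0.05. Paox was 1.39-fold higher (1.21 to 1.59), Mri1 1.30-fold lower (1.05 to 1.60) and Oaz1 1.12-fold lower (1.08 to 1.17). Paox and Oaz1 had 71.9% and 79.9% unique stretches, so their reads could be split with other genes. Of the other enzymes that make SAM or remove its product, 2 of 5 were above 0, with a median of -0.03.

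**Figure D3:**
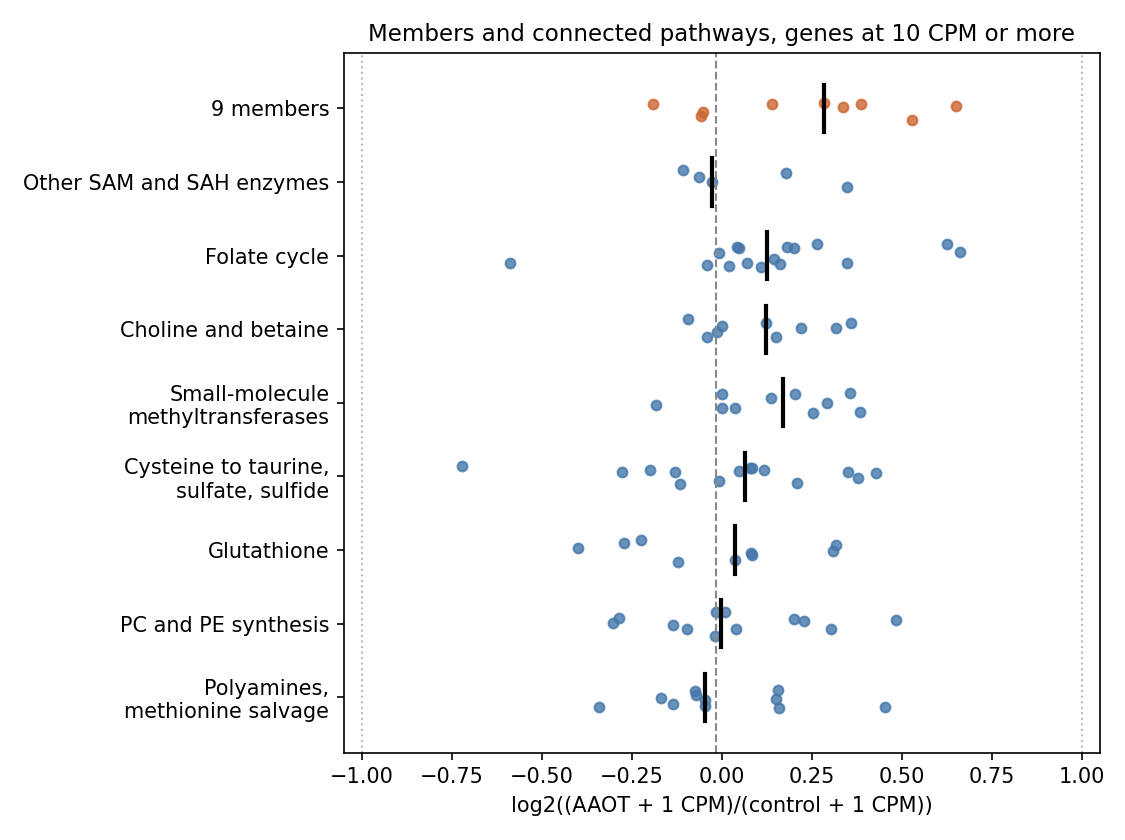
The log2 ratio of each gene with a mean of at least 10 CPM, AAOT pool against control pool with 1 CPM added, for the 9 members and the 8 connected lists. Points are genes, black bars are list medians, the dashed line is the median of all 7761 genes at -0.02 and dotted lines mark 2-fold. The bar of the members, at 0.28, lies to the right of the bars of the connected lists, and no point passes a dotted line.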

How the data were processed

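RNA sequencing of rRNA-depleted, strand-preserving libraries was used, per the labels' protocols. The authors deposited CPM for 2 libraries, whose columns summed to 1012463 (control) and 987690 (AAOT). These sums differ, so the deposited values were not scaled by read total alone. Every value was a whole multiple of 1 step per column (100% within a relative tolerance of 1e-06), which returned 18801241 and 16528533 reads. Trimmomatic 0.38, Bowtie2, RSEM, edgeR and mm10 are named in the submitters' processing notes, without roles. Which gene annotation they used: not given in the sources used here.

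With 1 library per group, no count model could estimate a spread, and none was run. Folds are ratios of CPM, with exact 95% Clopper-Pearson intervals of 2 read counts given their sum. Pair odds ratios have exact conditional intervals. These cover counting error only, and reads without molecular identifiers are not independent molecules. The members and gene lists were chosen with earlier results of these data known. Named were all members, the 3 genes farthest from equality per list, any past 2-fold, and Mat2a, Mat2b and Mtrr. A gene that this rule takes is not reported here. Gm4737, Gm5096 and Bhmt-ps1 were named because they share sequence with members. Transcripts, lengths and positions are from GENCODE M21 (GRCm38), and 50-base stretches were searched in all its transcripts. Only the counting intervals and 2-fold counts were tested on simulated reads, which held counting error and no spread between animals. Alternatives were 5 scalings, constants of 0.1 and 5 CPM, floors of 1 and 50 CPM or none, and other transcript lengths. Tools were Biopython 1.88, scipy 1.17.1, pandas 2.3.3, numpy 2.4.6 and matplotlib 3.10.9 under Python 3.11.15.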

Additional observations from a re-analysis of the deposited data

How the results depend on the processing

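The counts of members past 2-fold and 1.5-fold, and the direction of all 9 members, were the same under 5 other scalings, both other added constants, the 3 other floors and, chosen after seeing the data, with Ahcy and Gm4737 summed, although a floor of 50 CPM left 7 members. The members' median log2 ratio ranged from 0.26 (5 CPM added) to 0.34 (floor of 50 CPM), and scalings moved the median of all genes by -0.007 to 0.05. Scaling decided 2 counting intervals: below equality were Mat1a, Cbs and Pemt as deposited and by upper quartile, Mat1a and Pemt under 3 scalings, and Pemt alone with Rn45s left out. Of the named genes Mat2b changed sign, to 0.006 and 0.02 (log2) at equal totals with and without Rn45s. Between pools 6 members changed rank by level per kb of the longest transcript, against 2 by coding length, 2 by shortest transcript and, added after seeing the data, 4 by longest protein-coding transcript. No alternative was run for the pair odds ratios, which scaling does not change. No paired analysis was possible because each group has 1 library. Depth limited Mtr, at 254 reads per library.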

Other observations

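Some genes of the connected lists were too low for the counts above and are named after their values were seen. Chac1, which breaks down glutathione in the cell and is known as a target of the integrated stress response, had 91 reads in control liver and 31 reads in AAOT liver. It was 2.65-fold lower (1.74 to 4.12), the only one of the 20 low genes whose counting interval left out equality. Few reads came from Mthfd2, Mthfd1l, Mthfd2l and Aldh1l2, enzymes of the mitochondrial folate pathway, with Mthfd2 at 12 and 8 reads, Mthfd1l at 17 and 28 reads, Mthfd2l at 24 and 14 reads and Aldh1l2 at 1 and 2 reads. Slc7a11, the cystine importer, had 25 and 26 reads. Nnmt, which methylates nicotinamide with SAM, had 110 and 92 reads, a ratio of 0.93 (0.70 to 1.24).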
